A study of Mus musculus with 4 samples.

Results

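Haemoglobin-rich cells were taken as the droplets of the blood samples in which the 4 adult globin genes Hba-a1, Hba-a2, Hbb-bs and Hbb-bt made up at least 30% of the unique molecular identifiers (UMIs, each of which stands for 1 captured transcript). The cells were thus selected on their haemoglobin UMIs. The rule found 502 such cells among 14588 (3.44%). Peripheral blood was drawn from the heart of C57BL/6 female mice, and the study compared the young group, 4 months old, with the old group, 24 months old. Each group held 2 samples and each sample was pooled from 2 mice, so that n = 2 per age and the mice of a pool cannot be told apart. No treatment, transgene or mutation is given for either group. The pooled blood was separated on a Lymphoprep density gradient and treated with a red blood cell lysis solution, and the remaining cells went into 10x Chromium 3′ libraries.

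Red cells of mammals lose their nucleus before they enter the blood. The youngest of them, the reticulocytes, still hold ribosomes and the last messenger RNA made by the erythroblast, chiefly that of globin, and clear both along with their mitochondria as they mature. Adult haemoglobin joins pairs of α chains, from Hba-a1 and Hba-a2, and of β chains, from Hbb-bs and Hbb-bt, each with a haem group. Haem synthesis starts in red cells with Alas2 and ends with Fech, which inserts the iron. The transcription factors Gata1 and Klf1 drive these genes in the erythroblast through GATA and CACCC sequences.

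The 250 bases upstream of the RefSeq start of 4 genes that these cells carry at high levels are shown (build GRCm38.p6). An α and a β globin, the haem enzyme Alas2 and the red cell enzyme Bpgm were chosen because the results below turn on them. Capitals mark GATAA or CACCC on either strand, so that TTATC and GGGTG are the same letters read from the other strand, and no marked match overlaps another.
Hba-a1, chr11:32283422-32283671, plus strand: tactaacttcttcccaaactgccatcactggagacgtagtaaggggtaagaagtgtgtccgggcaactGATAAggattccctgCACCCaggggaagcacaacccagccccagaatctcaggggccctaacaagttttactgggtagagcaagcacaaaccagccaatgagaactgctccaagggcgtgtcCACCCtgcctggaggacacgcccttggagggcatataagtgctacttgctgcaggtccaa
Hbb-bs, chr7:103827929-103828178, minus strand: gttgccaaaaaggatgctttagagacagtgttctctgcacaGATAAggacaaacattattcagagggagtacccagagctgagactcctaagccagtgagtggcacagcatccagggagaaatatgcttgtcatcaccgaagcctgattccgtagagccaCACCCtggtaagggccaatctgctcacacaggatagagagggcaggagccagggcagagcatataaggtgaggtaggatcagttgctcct
Alas2, chrX:150547167-150547416, plus strand: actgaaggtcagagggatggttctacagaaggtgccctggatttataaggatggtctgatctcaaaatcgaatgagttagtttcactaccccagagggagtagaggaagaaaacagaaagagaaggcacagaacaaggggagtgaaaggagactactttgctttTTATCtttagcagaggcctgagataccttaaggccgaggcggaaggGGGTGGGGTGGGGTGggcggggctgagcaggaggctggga
Bpgm, chr6:34476106-34476355, plus strand: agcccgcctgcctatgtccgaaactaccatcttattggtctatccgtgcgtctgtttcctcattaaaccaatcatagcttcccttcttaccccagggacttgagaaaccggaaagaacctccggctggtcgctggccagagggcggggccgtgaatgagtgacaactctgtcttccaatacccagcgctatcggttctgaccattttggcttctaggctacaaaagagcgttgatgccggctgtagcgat
The Alas2, Hba-a1 and Hbb-bs windows held both motifs and the Bpgm window held neither. Of all 32851 such windows, 22.6% held GATAA, 52.0% CACCC and 10.1% both. Of the 12 windows found for 11 of the 20 leading genes described below, 3 held GATAA, 7 held CACCC and 3 held both. A match gives the letters only and does not show a bound site. In the annotation of the same genome (GENCODE M21), Hba-a1 lies at chr11:32283511-32284465 and Hba-a2 at chr11:32296489-32297298 on the plus strand. On the minus strand, Hbb-bs lies at chr7:103826534-103828096 and Hbb-bt at chr7:103812524-103813996. Alas2 starts at chrX:150547375 on the plus strand. The GENCODE spans of Hba-a1, Hbb-bs and Alas2 reach upstream of the RefSeq starts, so part of each of these windows lies inside the span.

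The haemoglobin-rich cells came from all 4 samples. They were 40 of 3902 cells in young sample 1 (1.03%, exact 95% interval 0.733 to 1.39), 196 of 3857 in young sample 2 (5.08%, 4.41 to 5.82), 180 of 4642 in old sample 1 (3.88%, 3.34 to 4.47) and 86 of 2187 in old sample 2 (3.93%, 3.16 to 4.83). The intervals are Clopper-Pearson and cover counting error only. Both old samples lay between the young ones. The mean was 3.05% ± 2.87 in young and 3.90% ± 0.0387 in old blood (SD, n = 2), a difference of 0.852 percentage points (two-sided exact permutation test, p = 1.0). This difference was set by young sample 1, without which old blood was lower by 1.18 percentage points (-1.18), and it changed sign (-0.0840) with a limit of 50% haemoglobin. The design cannot reach p below 0.333.

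**Figure D1:**
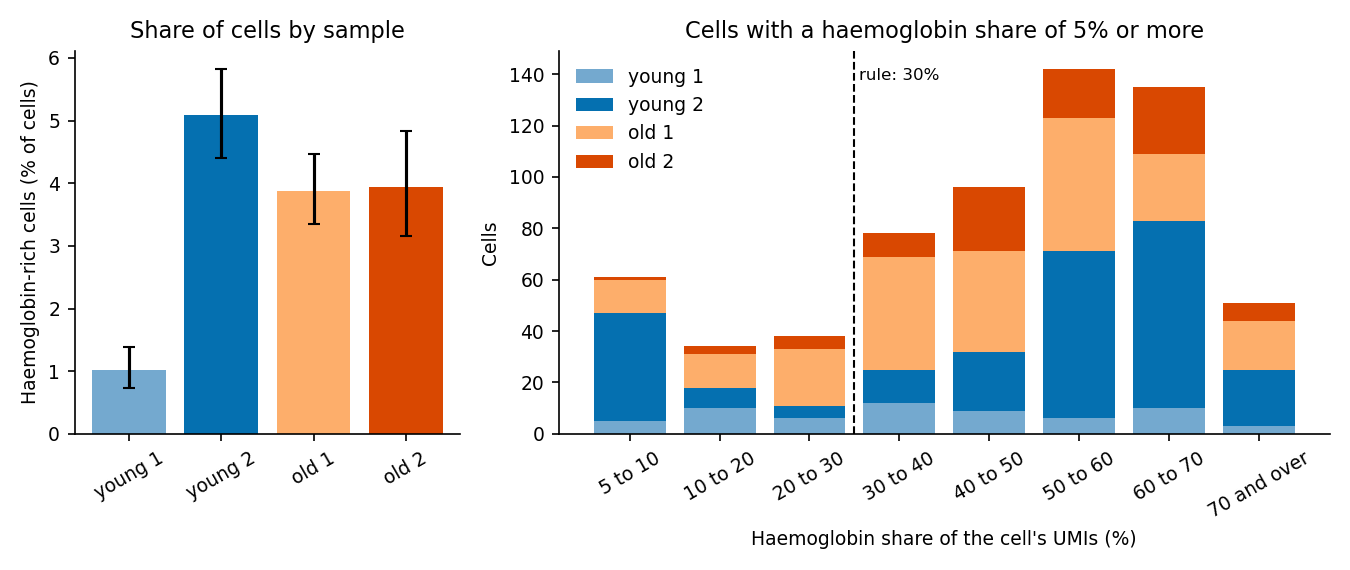
Left, percent of the cells of each sample that were haemoglobin-rich, with exact 95% intervals for counting error. Right, number of cells by the share of their UMIs from the 4 haemoglobin genes, stacked by sample, for the cells at 5% or more, with the dashed line at the 30% rule. Young sample 1 had the lowest share (1.03%) and the cells were fewest just under the rule (34 and 38 cells) and most numerous at 50 to 60% (142 cells).

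The rule used the haemoglobin share, so its values are a description. The share ran from 30.1% to 87.1% in the members, and the highest outside was 29.9%. The median share was 48.7% in young sample 1, 59.7% in young sample 2, 52.0% in old sample 1 and 51.9% in old sample 2. Few cells lay near the limit: 34 cells held 10 to 20% haemoglobin, 38 held 20 to 30%, 78 held 30 to 40%, 96 held 40 to 50%, 142 held 50 to 60%, 135 held 60 to 70% and 51 held more, while 13953 of the 14588 cells held under 5%. Those other cells were not free of globin. The median over all cells outside the rule was 0.472% in young sample 1, 2.80% in young sample 2, 1.95% in old sample 1 and 1.15% in old sample 2, the lowest again in young sample 1.

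The members held 3261092 UMIs, of which 1506496 were outside the 4 haemoglobin genes. By sample, the UMIs outside haemoglobin summed to 104522 in young sample 1, 483241 in young sample 2, 612871 in old sample 1 and 305862 in old sample 2, so that young sample 1 gave the least precise values. The name red cell fits only part of what these droplets held. Outside haemoglobin, a member had a median of 2518, 2249, 2843 and 2952 UMIs in the samples young 1, young 2, old 1 and old 2, against 2307, 2112, 2990 and 3335 in the other cells of the same samples. The members had a median of 958 to 1176.5 genes outside haemoglobin against 919 to 1225 in the other cells, and the authors kept only cells with over 500 genes. They are therefore called haemoglobin-rich cells here. Mitochondrial transcripts made up 3.45 to 5.31% of UMIs outside haemoglobin in members and 3.57 to 4.93% in other cells. Of the 502 members, 12 carried a cell barcode found again in another sample, and in no case were both cells members.

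The α and β globins did not stand in the same ratio inside and outside the rule. In the members, β UMIs were 1.35, 1.21, 1.30 and 1.22 times the α UMIs in young 1, young 2, old 1 and old 2. In the other cells they were 2.11, 2.04, 1.93 and 2.03 times the α UMIs, higher in all 4 samples and without overlap. Within the β genes, Hbb-bs was at 4.52, 5.12, 4.57 and 4.92 times Hbb-bt in members and at 7.05 to 7.98 times in other cells. Hba-a1 and Hba-a2 stayed near each other, at 1.15 to 1.16 times in members and 1.12 to 1.14 in other cells. Over the bands of haemoglobin share, the β to α ratio went from 2.13 in cells under 5% and 1.498 at 5 to 10% to 1.23 at 70% and over, and the Hbb-bs to Hbb-bt ratio from 7.82 to 4.50. These ratios were not tested, since the rule used the same genes. The paralogs also share sequence. Of the 98-base windows in the last 400 bases of the transcript, 67.7% of Hba-a1 and 62.4% of Hba-a2 are found in the other α gene, and 47.5% of Hbb-bs and 47.2% of Hbb-bt in the other β gene. A read in such a window cannot be given to 1 gene, so the split within each pair is uncertain, and the sum of a pair can miss reads too.

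Once the 4 haemoglobin genes were removed, genes of the red cell led the members. Values are CPM, the UMIs of a gene summed over the cells of a sample and scaled to 1000000 UMIs outside haemoglobin, and ratios are members over other cells, with fewer than 3 UMIs in a sum of other cells taken as 3. The rule chose the members by haemoglobin in these cells, so the ratios are given with no test. Of the 2563 genes with a UMI in at least 10% of members in each age, 73 (2.85%) were over 2-fold higher in members in every sample, and 30 of these stood on the red cell lists. Those lists held 44 of the 2563 genes and were chosen with earlier results of these data known. No gene was under 0.5 times in every sample, and 2266 genes (88.4%) lay within 2-fold in every sample. Of the 20 genes with the highest smallest ratio over the 4 samples, 14 were on the red cell lists.

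Haem synthesis was led by Alas2, which makes aminolevulinate and sets the rate of the pathway in red cells. Its level in members was 2354, 4101, 2550 and 3263 CPM in young 1, young 2, old 1 and old 2, against 9.82, 62.8, 45.2 and 29.5 CPM in the other cells. All 4 member values lay above all other values, by 239.6, 65.4, 56.4 and 110.8 times. Alas2 had a UMI in 95.3% of young and 96.6% of old members. Fech, the last enzyme, was at 503 to 793 CPM in members and 14.8 to 22.9 CPM in other cells. Slc25a37, which carries iron into the mitochondrion, was 14.3 to 18.4 times higher, Slc25a39 4.7 to 10.2 times, Glrx5, which helps to build iron-sulfur clusters, 3.2 to 4.6 times and the uroporphyrinogen decarboxylase Urod 2.3 to 3.7 times. Alad, an early enzyme of the pathway, stood close to the other cells at 0.6 to 1.4 times and was under the 10% detection limit. Tmem14c passed that limit and was not raised, at 86.1, 97.3, 86.5 and 121 CPM in members against 91.7, 97.3, 124.7 and 114.5 CPM in other cells. The list as a whole (16 genes) was 8.88 to 13.6 times higher.

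The red cell membrane was represented by Slc4a1, the anion exchanger band 3, which was at 143.5, 192.5, 266 and 173.3 CPM in members and at 0.44, 2.71, 3.76 and 0.91 CPM in other cells. Its lowest level outside the rule was in young sample 1, which also had the least haemoglobin there. Tspo2, a membrane protein of the red cell line that binds cholesterol, was at 47.8 to 74.5 CPM against 0.09 to 1.25, and Epb41, a protein of the membrane skeleton, at 249 to 341 CPM against 15.9 to 33.99. Cd24a, which B cells also carry, was only 1.9 to 4.8 times higher. Of the 22 genes of the list, 5 passed the detection limit. Rhag, Ank1 and Sptb stayed at or under 6.5 CPM in all member sums. The list was 3.87 to 8.06 times higher.

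Many genes of the list for the late clearance of the reticulocyte were high as well. Mkrn1, a ubiquitin ligase, was at 1521 to 2353 CPM against 118.1 to 162.9, and Ube2l6 and Ube2o, both ubiquitin-conjugating enzymes, were 23.7 to 36.6 and 14.5 to 21.3 times higher. Bnip3l, the receptor by which reticulocytes remove mitochondria, was 4.8 to 6.7 times higher, and Bcl2l1, the survival factor Bcl-xL, 9.4 to 15.1 times. The list of 27 measured genes was 5.22 to 6.40 times higher, and 11 of the 17 that passed detection were over 2-fold in every sample. Pim1 and Epsti1 passed detection but stayed near the other cells. Pim1 was at 258, 195, 287 and 298 CPM in members of young 1, young 2, old 1 and old 2, against 221, 219, 322 and 309. Epsti1 was at 191, 115.9, 75.1 and 85.0 CPM against 151.7, 137.8, 93.0 and 97.2. Trim58 and Ypel4 had no UMI in members.

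Among the enzymes of red cell metabolism, Bpgm, which makes the 2,3-bisphosphoglycerate that lowers the oxygen affinity of haemoglobin, was at 1579, 2340, 1570 and 1985 CPM in members and at 18.6, 47.0, 40.3 and 26.1 CPM in other cells. Carbonic anhydrase 2 (Car2) was 16.8 to 69.5 times higher. The antioxidant enzymes Gpx1, Prdx2 and Cat were 3.4 to 4.3, 2.8 to 3.9 and 2.5 to 4.4 times higher. The ferritin genes Fth1 and Ftl1, which white cells also express, were 1.0 to 1.4 and 1.4 to 1.7 times higher. The list was 2.06 to 2.41 times higher. Of the minor globins, the θ-like gene Hbq1b was at 9.57, 51.7, 27.7 and 52.3 CPM in members and at most 0.59 CPM in other cells. Hbq1b and Hbq1a are near-identical copies, so reads that fit both may be missing from these counts, which was not tested.

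Of the 13 erythroid regulators listed, only Lmo2 and Bcl11a passed the detection limit. Lmo2, a transcription cofactor, was at 95.7, 173.8, 127.3 and 143.9 CPM in members, 0.90 to 1.60 times the other cells. Bcl11a, a repressor of fetal globin that B cells also express, was at 86.1, 115.9, 109.3 and 111.2 CPM, 0.66 to 1.01 times the other cells. Klf1, Tal1 and the erythropoietin receptor Epor had no UMI among the 1506496 UMIs of the members outside haemoglobin, where a count of 0 allows up to 3 counts. Gata1 was at 0 to 4.1 CPM, and Tfrc, the transferrin receptor, at 9.6 to 19.6 CPM. The list as a sum was at 0.983 to 1.33 times the other cells, and the proliferation list at 0.869 to 0.942 times, with Mki67 at 0 to 6.5 CPM. Ube2c, a ubiquitin-conjugating enzyme of mitosis on the same list, went the other way, at 95.7, 138.6, 155 and 134 CPM in members and 7.8, 8.7, 9.2 and 17.2 CPM in other cells. Leading genes off the red cell lists were Apol11b, Trim10, Rec114, Cdr2, Fam213a and Rsad2. The interferon-stimulated gene Rsad2 was at 277, 401, 439 and 373 CPM in members against 5.49 to 15.4, and Isg15 was 3.8 to 6.5 times higher, whereas Ifit3 was at 0.3 to 1.0 times the other cells.

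**Figure D2:**
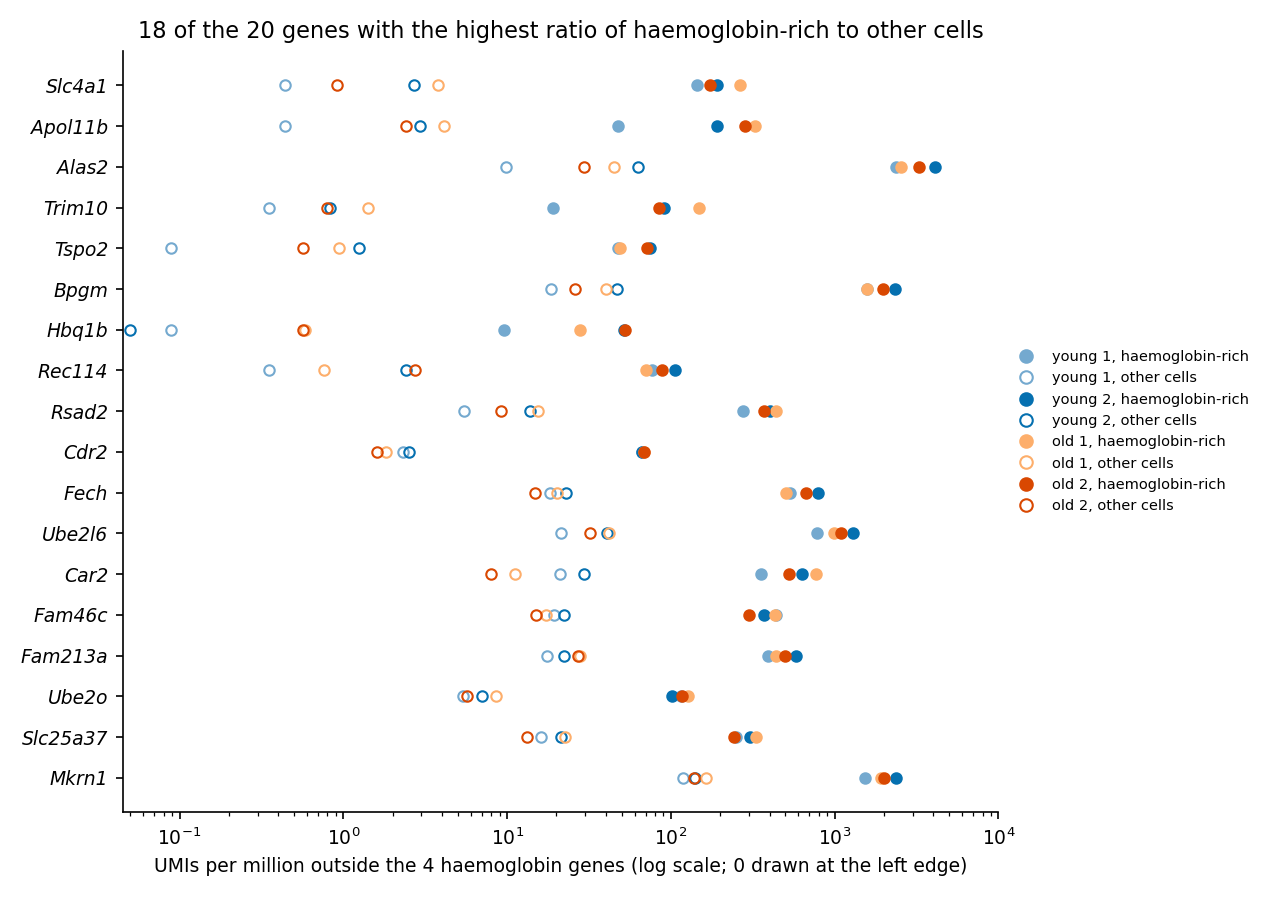
CPM outside the 4 haemoglobin genes (log axis) for 18 of the 20 genes with the highest smallest ratio, in members (filled) and other cells (open) of each sample. A level of 0 is drawn at the left edge. For each gene shown all 4 filled points lie to the right of all 4 open points, as with Alas2 at 2354 to 4101 CPM against 9.82 to 62.8.

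The level of Alas2 followed the haemoglobin share beyond the limit of the rule. Over the cells of all samples, Alas2 was at 32.8 CPM in cells under 5% haemoglobin, 357 CPM at 10 to 20%, 1095 CPM at 30 to 40%, 3469 CPM at 50 to 60% and 9248 CPM at 70% and over. Set against haemoglobin itself, Alas2 changed far less, from 20.9 UMIs per 10000 haemoglobin UMIs under 5% to 29.3 at 70% and over, with 11.6 as the lowest value at 5 to 10%. By sample, Alas2 per 10000 haemoglobin UMIs was 23.1, 29.5, 24.8 and 29.0 in members and 17.0, 21.9, 20.0 and 22.8 in other cells. Bpgm went the other way in young sample 1, old sample 1 and old sample 2, at 15.5, 15.3 and 17.6 in members and 32.2, 17.8 and 20.2 in other cells, and was near equal in young sample 2, at 16.8 and 16.4. The depth outside haemoglobin fell over the same bands, from a median of 4677 UMIs at 30 to 40% to 1453 at 70% and over. With the 4 samples together, the B cell list lay between 7327 and 9273 CPM over all bands. Within a sample it varied more, as in young sample 2, where it was 1954 CPM in the 5 cells at 20 to 30% and 8704 CPM in the 73 cells at 60 to 70%. With the samples together, the monocyte list went from 8271 CPM at 30 to 40% to 2408 at 70% and over.

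**Figure D3:**
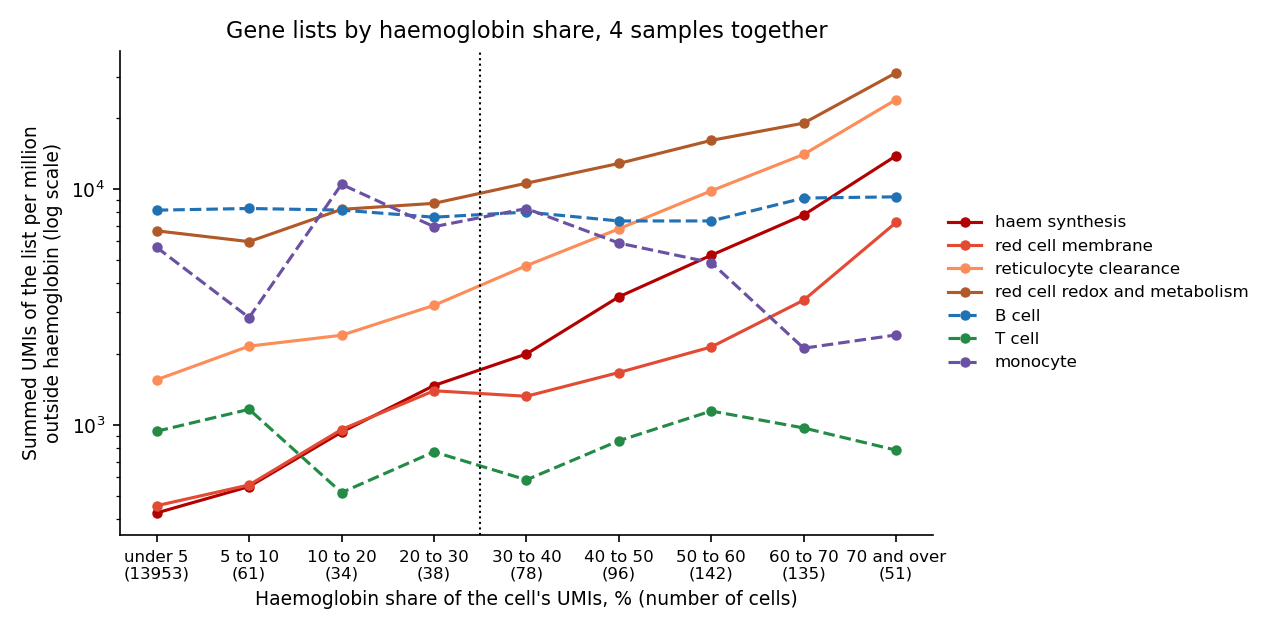
Summed CPM of 7 gene lists outside haemoglobin (log axis) by the haemoglobin share of the cell, with the cells of the 4 samples together and the number of cells under each band. Solid lines are red cell lists and dashed lines white cell lists, and the dotted line marks the 30% rule. Haem synthesis went from 424 to 13853 CPM while the B cell list, over samples whose mix changed with the band, lay between 7327 and 9273 CPM.

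White cell RNA in the same droplets was described by classes. It is not free of the rule, which divides haemoglobin by all UMIs of a cell, so members and other cells are compared with no test. For the classes, 500 UMIs outside haemoglobin were drawn at random from each cell, which was then given a class. A cell was B if the 11 measured B cell genes (Cd79a, Cd79b, Ms4a1 and others) had at least 3 UMIs and more than the 11 T cell genes, T in the reverse case, both if each list had 3, other white cell if a natural killer, monocyte, platelet, dendritic cell, basophil or macrophage list had 3, and none otherwise. Of the 502 members, 306 were B, 32 T, 1 both, 83 other white cell and 80 none. Without thinning, 501 of 502 members had a class (362 B, 63 T, 37 both and 39 other white cell). Nearly all other cells had a class then too, with 5 of 3862, 10 of 3661, 1 of 4462 and 0 of 2101 in none in young 1, young 2, old 1 and old 2. The both class then held 12.5, 10.2, 5.0 and 3.49% of members and 7.98, 6.34, 3.74 and 2.38% of other cells. The limit was close for some cells, since 70 members lay within 1 UMI of the B limit and 37 within 1 UMI of the T limit.

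The mix of classes was set against that of the other cells of the same sample. B cells were 50% of members and 54.6% of other cells in young sample 1, 54.6% and 55.6% in young sample 2, 68.9% and 70.6% in old sample 1, and 64.0% and 65.4% in old sample 2. The B share was lower in members in 4 of 4 samples, by 2.19 ± 1.64 percentage points on average (-2.19, SD, n = 4). The sign changed to 1.30 with a limit of 50% haemoglobin and to 1.25 without the cells of the highest Scrublet doublet scores. T cells were 15% and 15.3%, 10.7% and 10.0%, 1.67% and 3.07%, and 2.33% and 4.24%, in the same order. The mean difference was -0.725 ± 1.17 percentage points (SD, n = 4). Other white cells differed by 1.01 ± 5.61 percentage points and cells of no class by 1.93 ± 4.81, with members higher in 2 and in 3 of 4 samples. The spread between samples was larger than each of these last 3 differences.

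The level of B cell RNA within a class is given as a description, since the limits of the classes were set on the same genes. In B class members the B cell list was at 12316, 11789, 11383 and 11826 CPM, against 12896, 12815, 11331 and 11373 CPM in B class cells outside the rule. In T class members the B cell list was at 413 to 707 CPM and in T class cells outside the rule at 341 to 764 CPM. Cd79a, a chain of the B cell receptor complex, was at 1464, 1674, 2485 and 2197 CPM over all members and at 1837, 1851, 2504 and 2334 CPM over all other cells. The macrophage list was lower in members in all 4 samples, at 0 to 39.2 CPM against 35.6 to 538, and so was the neutrophil list, at 9.57 to 42.4 CPM against 22.2 to 252.6. Neither had a gene that passed detection. Scrublet called 21 of all 14588 cells doublets (0.144%), too few for its calls to be used, and none of the 21 was a member. Of the members, 8.37% were among the cells with the highest 4% of scores in their sample, against 3.86% of the other cells.

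**Figure D4:**
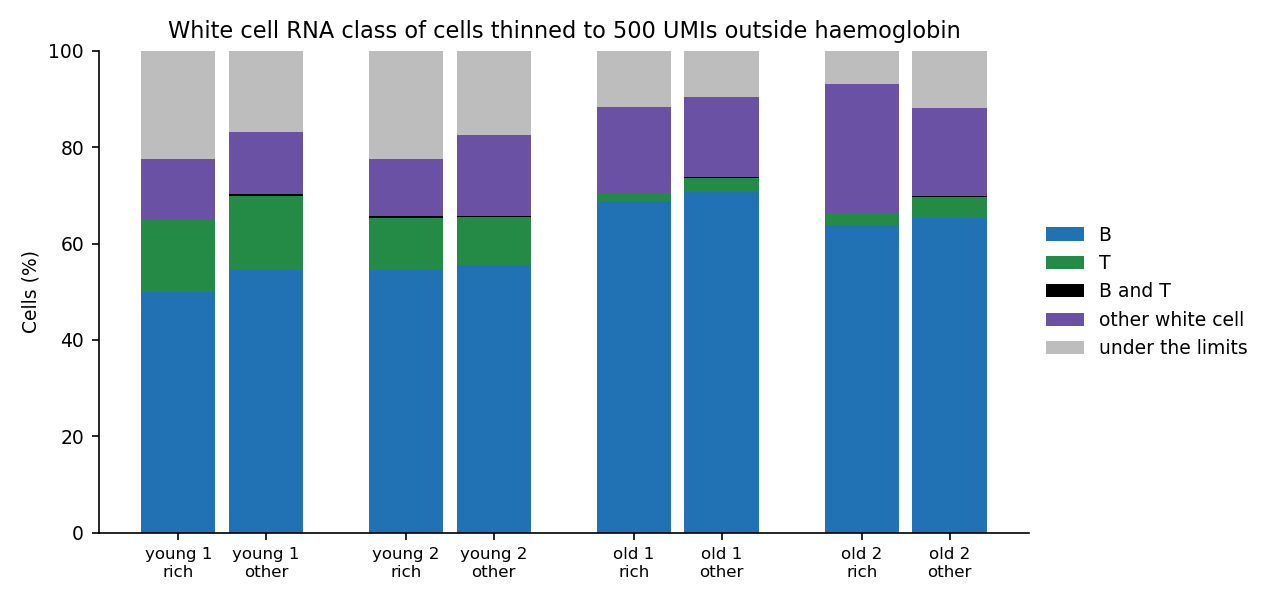
Percent of haemoglobin-rich (rich) and other cells of each sample in each white cell RNA class, after each cell was thinned to 500 UMIs outside haemoglobin. The B share of members minus that of other cells ran from -4.61 to -0.994 percentage points over the samples, and the B share of members was 50 and 54.6% in young and 68.9 and 64.0% in old members.

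The same classes were compared between ages. The B share of members was 52.3% ± 3.25 in young and 66.4% ± 3.49 in old blood (SD, n = 2), the T share 12.9% ± 3.03 and 2.00% ± 0.466, the share of other white cells 12.1% ± 0.541 and 22.3% ± 6.34, and that of no class 22.5% ± 0.0361 and 9.32% ± 3.32. Old and young samples did not overlap in any of the 4. In each the two-sided exact permutation test gave p = 0.333, the smallest possible with 2 against 2 samples (0.333 after adjustment over the 4 classes). Only for B did the ages stay apart under every setting of haemoglobin limit, doublet scores, class limit and thinning tried. The difference in T was -1.28 percentage points at a class limit of 5 UMIs in place of -10.9 (exact permutation test, p = 1.0). Without thinning, other white cells were 7.5% and 3.06% in young and 7.22% and 19.8% in old members, which overlap, and the difference for cells of no class was 0.278 percentage points in place of -13.2. In the sums of all members, ribosomal protein genes made up 32.3% and 32.2% of UMIs outside haemoglobin in young and 28.2% and 30.01% in old samples (exact permutation test, p = 0.333), and mitochondrial genes 3.45% and 3.89% in young and 5.31% and 3.92% in old samples (p = 0.333). The platelet list was at 19.1 and 20.7 CPM in young members and at 1297 and 886 CPM in old members, and in the other cells at 10.4 and 58.9 CPM in young and 880 and 541 CPM in old samples. Of its 10 genes, Ppbp and Itga2b had no UMI in young members, while Pf4 had UMIs in young sample 2. The part of these differences in the gene results that follow was not tested.

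Genes were compared between ages on the members' UMIs summed per sample, with edgeR's quasi-likelihood test and Benjamini-Hochberg adjustment over the 2563 genes tested. Of these, 63 genes (2.46%) were called at an adjusted p under 0.05, 36 higher (1.4%) and 27 lower (1.05%) in old blood. The test estimates the spread between samples in part over all genes, so its p and SE are not a gene's own spread at n = 2. A sum over cells cannot tell fewer cells of a type from less RNA per cell. The count rested on single samples, at 18 without young sample 2, 33 without old sample 1, 62 without young sample 1 and 91 without old sample 2. It was 25 with DESeq2 (18 higher and 7 lower). Over all genes tested, both old samples lay on 1 side of both young samples in 42.1%, and this held for all 63 genes called.

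No gene of the red cell lists was called. Of the 103 genes on the 6 lists, 44 were tested, 18 had a positive and 26 a negative log2 fold change, and their median was -0.07, near the -0.05 of all genes tested. DESeq2 also called 0, and 3 of the 44 (Ftl1, Gpx1 and Epsti1) had an unadjusted p under 0.05, beside 323 of the 2563. The lowest adjusted p was 0.0968, for Ftl1, ferritin light chain, at 3416 and 3729 CPM in young and 4487 and 5463 CPM in old members (log2 fold change 0.47, SE 0.14). Ftl1 was called with a limit of 50% haemoglobin and without old sample 1, and Hagh was called without young sample 2. Alas2, whose 4 member levels are given above, differed by -0.19 (SE 0.20, adjusted p = 0.764 in edgeR), and its young values lay on either side of the old ones. Bpgm differed by -0.18 (SE 0.18) and Slc4a1 by 0.33 (SE 0.25), each within 2 SE of 0. By list, the median log2 fold change was -0.11 for haem synthesis (8 tested), 0.12 for the membrane (5), -0.13 for reticulocyte clearance (17) and 0.30 for redox and metabolism (11). A p that misses the threshold does not show that ages were alike. In counts simulated at the depth of these sums, 51 of 100 genes changed 2-fold and 96 of 100 changed 4-fold were called. The simulation gave every gene the same fixed spread between samples. Real genes differed in spread, with Alas2 at 3228 ± 1236 CPM and Glrx5 at 247 ± 10.9 CPM in young members (SD, n = 2). The shares called in the simulation therefore need not hold for the red cell genes.

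Genes called higher included several that lymphocytes carry. The largest increase was in S100a6, a calcium-binding protein, at 459 and 623 CPM in young and 2803 and 1419 CPM in old members (log2 fold change 1.91, SE 0.25, adjusted p = 0.000442). Crip1, a LIM domain protein, was at 3081 and 1641 CPM in young and 9137 and 4607 CPM in old members (1.58, SE 0.27, adjusted p = 0.00293). The Crip1 call was lost with DESeq2 (1.56, adjusted p = 0.32) and without young sample 2 (1.16, adjusted p = 0.0884), and at a limit of 50% haemoglobin its value was 0.98. With Ahnak, a large scaffold protein, they were 3 of 5 tested genes called higher of the list for B cells of old blood, a list drawn from earlier results on these samples and so no independent evidence. Mzb1, a chaperone of antibody assembly, was at 182 and 317 CPM in young and 796 and 628 CPM in old members (1.38, SE 0.23), and Pdia4, an enzyme of protein folding in the endoplasmic reticulum, differed by 1.37 (SE 0.28). Ly6a, the surface protein Sca-1, was at 220 and 339 CPM against 795 and 788 (1.39, SE 0.20). Plp2, Tagln2, Fgd2, Pafah1b3, Wfdc17 and Gm15987 completed the 12 largest increases, from 1.35 (Gm15987) to 1.499 (Wfdc17). Besides Crip1, the calls of Ahnak, Pdia4, Plp2, Fgd2, Pafah1b3 and Gm15987 were lost with DESeq2. Without young sample 2, Ahnak was at 0.68 and Pdia4 at 1.58, neither called. The B cell list had 1 of 11 tested genes called, the kinase Blk (1.01, SE 0.26, adjusted p = 0.0470), and 10 of 11 were positive.

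Genes of the monocyte list were also called. Of the 12 genes on the monocyte list, 5 were tested and 3 called higher: Lyz2, lysozyme, at 1674 and 1653 CPM in young and 2802 and 3884 CPM in old members (1.00, SE 0.16, adjusted p = 0.00268), Cst3, cystatin C (1.34, SE 0.19), and Ifitm3, an antiviral membrane protein (0.93, SE 0.18). In B class members alone none of the 3 was called, with log2 fold changes of 0.22, 0.09 and 0.31. Among the antigen presentation genes 1 of 14, H2-Eb1, was called higher (0.77, SE 0.18) and 0 lower. Of the 14, 11 were positive, with a median log2 fold change of 0.37. In edgeR 8 of the 14 had an unadjusted p under 0.05, beside 323 of all 2563 genes tested. In B class members alone H2-Eb1 was at 0.39 and not called (adjusted p = 0.522 in edgeR). H2-Aa, H2-Ab1 and Cd74 were at 0.55, 0.49 and 0.44 in all members and at 0.14, 0.04 and -0.06 in B class members. B2m and H2-D1 were at 0.21 and 0.31 in all members and at 0.29 and 0.30 in B class members.

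Genes of the natural killer and naive lymphocyte lists were called lower in old members. Nkg7, a protein of cytotoxic granules, was at 631 and 445 CPM in young and 115.8 and 170 CPM in old members (-1.90, SE 0.24, adjusted p = 0.000349). Ccl5, a chemokine of effector T and natural killer cells, was at 2526 and 2243 CPM against 924 and 830 (-1.44, SE 0.15, adjusted p = 0.000101), and at a limit of 50% haemoglobin its value turned to 0.69 (adjusted p = 0.216). Both tested genes of the natural killer list were thus called lower, and at the 50% limit neither was, with Nkg7 at -0.18 (adjusted p = 0.935). Satb1, a chromatin organiser of thymocytes and T cells, was at 200.9 and 115.9 CPM against 31.0 and 52.3 (-1.83, SE 0.36), and Fcer2a, the low-affinity IgE receptor of follicular B cells, at 114.8 and 180 CPM against 50.6 and 39.2 (-1.81, SE 0.30). These were 2 of the 5 tested genes on the naive lymphocyte list, all of which were negative. Dgka, Arl4c, Ms4a4b, Saraf, Id2, AW112010, Smc4 and Peli1 completed the 12 largest decreases, between -1.76 and -1.37. With DESeq2 the calls of Fcer2a, Arl4c, Id2, AW112010, Smc4 and Peli1 were lost and Dgka had no adjusted p, and at the 50% limit Satb1 was at -0.69 (adjusted p = 0.47). No gene of the T cell list passed the detection limit in members. Without that limit, where 1.42% of genes were called, 9 of the 11 were called lower and none higher, and all 11 were negative with a median of -2.57. Cd3d, a chain of the T cell receptor complex, was then at 335 and 393 CPM in young and 50.6 and 39.2 CPM in old members.

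Restricting both ages to B class members left 13 of 2455 tested genes called, 12 of them among the 63. Of the 63, 55 were tested there. The 12 were S100a6, Crip1, Ly6a, Mzb1, Pdia4, Tagln2, Aldh2, Ctsz, Plac8, S100a11 and, lower, Zfp36l2 and Fcer2a. S100a6 differed by 1.69 and Fcer2a by -1.97 there. Nkg7, Ms4a4b, Saraf, Arl4c, Id2 and Ahnak did not pass the detection limit in these cells, and Satb1 and Smc4 were at -0.32 and -0.22, neither called.

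**Figure D5:**
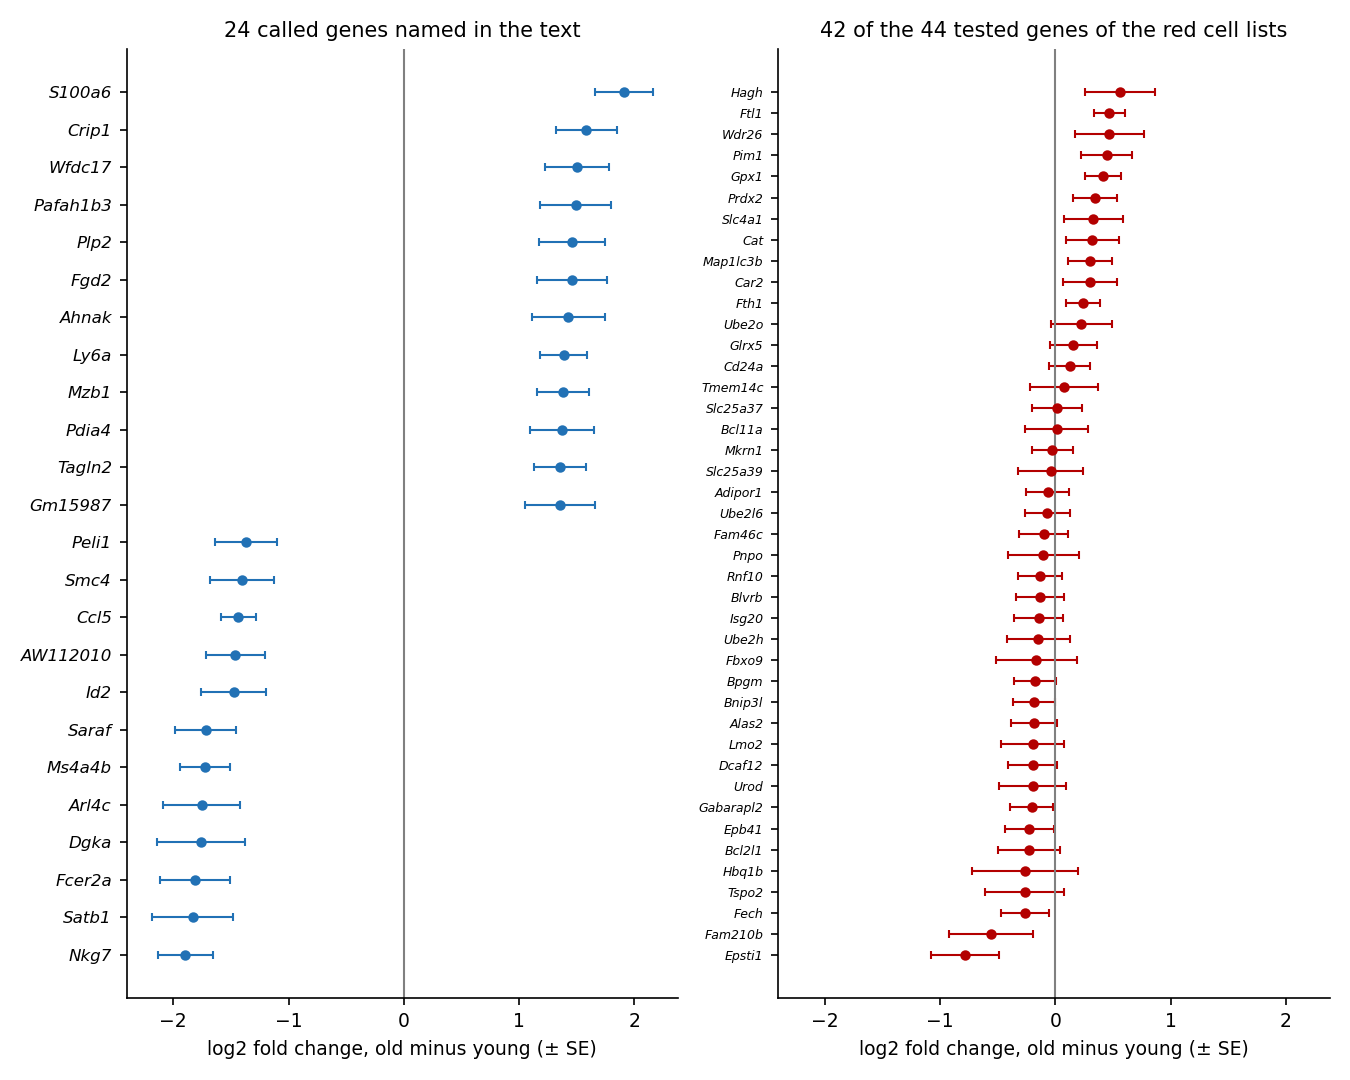
Log2 fold change of old minus young members from edgeR, with an SE derived from the F statistic of its test. The 24 called genes named in the text (left) and 42 of the 44 tested genes of the red cell lists (right) are on the same axis. The called genes lie between -1.90 and 1.91, and the red cell genes shown lie between -0.79 (Epsti1) and 0.56 (Hagh).

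The age difference was set against that in the other cells of the same samples by an interaction term. Of 2563 genes, 1 (0.039%) was called, also with DESeq2, and 92 had an unadjusted p under 0.05. The count was 12 without young sample 1, 23 without young sample 2 and 0 without old sample 1. The gene was Car2 (chr3:14886273-14900770, plus strand), the carbonic anhydrase by which red cells handle carbon dioxide. It was at 354, 633, 772 and 526 CPM in members in young 1, young 2, old 1 and old 2, and at 21.1, 29.3, 11.1 and 7.99 CPM in other cells. In members the ages overlapped and did not differ by the test (0.30, SE 0.24, adjusted p = 0.657), while in other cells both old samples lay below both young ones. The log2 age effect in members was 1.78 above that in other cells (SE 0.17), with an adjusted p of 0.0003 in edgeR. It was called under 14 of 15 alternatives, and without old sample 1 it was 1.66 with an adjusted p of 0.159. Set against haemoglobin, Car2 in other cells was at 36.5 and 10.2 UMIs per 10000 haemoglobin UMIs in young and 4.90 and 6.18 in old samples, and in members at 3.47, 4.55, 7.50 and 4.67. S100a6, Crip1, Ly6a and Nkg7, called by age in members, had an adjusted p of 1.0 for the difference from other cells, where S100a6 was at 680, 642, 3155 and 1448 CPM.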

How the data were processed

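Droplet 3′ libraries (10x Chromium, kit v2, read 2 of 98 bases) of 4 pooled blood samples were used. UMI counts per gene and cell were produced by the authors with Cell Ranger against mm10. They pooled both libraries of an age by cellranger aggr and deposited the counts without normalization. They kept cells with more than 500 genes and less than 10% mitochondrial reads (Seurat 2.3.0). Cells above an upper limit on the number of genes were removed too. Depth equalisation by aggr and the annotation release: not given in the sources used here. Members were cells with at least 30% of UMIs from the 4 haemoglobin genes, which were then removed before library sizes. The members, the 22 gene lists and the tests were chosen with earlier results of these data known.

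UMIs were summed per sample and tested with edgeR 4.0.16 (quasi-likelihood, TMM, Benjamini-Hochberg, threshold 0.05, limma 3.58.1, R 4.3.3) on genes with a UMI in at least 10% of members in each age, as in the study's own filter. The SE of a log2 fold change was derived from the edgeR test. It is the absolute log2 fold change divided by the square root of the F statistic. DESeq2 1.42.0 was an alternative. The interaction test kept the sample as a block. Samples are labelled as separate pools, n = 2 per age. The p-values of edgeR and DESeq2, and the SE, use a spread between samples that is estimated in part over all genes tested. They do not measure the spread of a single gene over its own samples. Percentages were compared between ages with exact permutation tests over samples. The planned sign-flip test of classes in members against other cells is not reported, since the rule's denominator holds white cell RNA. By age, the 12 called genes that changed most on the log2 scale in each direction, with no overlap of the ages, are named. Leading genes are the 20 with the highest smallest ratio of members to other cells over the samples. Genes of the lists and those first in the interaction test complete the rule. Aldh2, Ctsz, Plac8, S100a11 and Zfp36l2 were named after their values were seen. Counts were simulated with the same fixed spread between samples for every gene, which real genes need not share. On these counts the age test called 51 of 100 genes changed 2-fold and 96 of 100 changed 4-fold. It made 6 false calls among 2363 unchanged genes. The interaction test called 27 and 94, with 3 false calls. Doublets were scored with Scrublet (scanpy 1.11.5) and not removed. Scripts ran in Python 3.11.15 with scipy 1.17.1, numpy 2.4.6, matplotlib 3.10.9 and pandas 2.3.3. Promoter windows are from RefSeq. Immunoglobulin and T cell receptor constant genes, Ahsp and Slc40a1 were not analysed here, and some genes of the lists are not reported here.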

Additional observations from a re-analysis of the deposited data

Results flagged for a closer look

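Car2 was the gene whose age effect differed between haemoglobin-rich and other cells by the interaction test (edgeR, Benjamini-Hochberg adjusted p = 0.0003). The log2 effect was 1.78 higher in haemoglobin-rich cells, where Car2 was at 493.6 ± 197.4 CPM in young and 649 ± 174 CPM in old samples (SD, n = 2), against 25.2 ± 5.82 and 9.55 ± 2.20 CPM in the other cells. Behind the young value of sample 1 stand 37 UMIs, and behind the others 306, 473 and 161. Under the alternatives the difference ran from 1.503 to 2.06 on the log2 scale and was called in 14 of 15.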

How the results depend on the processing

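The 63 age calls became 25 with DESeq2, 175 with no filter on low counts, 142 with filterByExpr, 40 at a limit of 50% haemoglobin, 13 in B class cells, 15 of 470 genes tested with cells thinned to 500 UMIs, and 18 to 91 when 1 sample was left out. The part called higher, 57.1% of calls, was 72.0% with DESeq2, 72.5% at the 50% limit and 66.7% with the haemoglobin genes kept in the library size. The 1 call of the interaction became 11 with no filter, 12 with filterByExpr, 5 at a limit of 20% and 0 to 23 when 1 sample was left out (0 with 82 genes at an unadjusted p under 0.05, without old sample 1). The age difference in the share of cells turned to -0.084 at a limit of 50% and ran from -1.177 (without young sample 1) to 2.88 with 1 sample left out. For the white cell classes by age, cells of no class turned to 0.278 without thinning. For members against other cells, B turned to 1.295 at a limit of 50% and 1.254 without the highest Scrublet scores, T to 0.118 at a limit of 20%, and other white cells to -1.434 at 50%, -2.988 without the highest Scrublet scores and -1.445 to 3.071 with 1 sample left out. Ccl5 turned to 0.69 at a limit of 50%. The cause was not tested in any of these. Of 370 values for the 24 genes named by age, 308 kept their direction and call, 61 their direction only and 1 turned, leaving out Dgka with DESeq2, which had no adjusted p. With 1 sample left out, the lone sample of an age is assumed to vary like the others. The samples of both ages carry replicate numbers, but nothing ties equal numbers to a shared batch, and the deviations of same-numbered samples from their group means had a correlation of -0.003 over 2563 genes. A fit with the replicate number as a block called 91 genes, among them Ftl1 of the red cell lists. Young sample 1, with 40 members and 104522 UMIs outside haemoglobin, limits the precision.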

Other observations

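No gene of the platelet and basophil lists passed the detection limit in the haemoglobin-rich cells, so none was tested by age and the values are given as a description. Ppbp, a platelet chemokine, had no UMI in young members and was at 409.5 and 277.9 CPM in old members, against 242 and 130.2 CPM in the other cells of the old samples. Pf4, platelet factor 4, was at 0 and 4.14 CPM in young and 223.5 and 189.6 CPM in old members. The basophil list was at 0 and 6.21 CPM in young and 99.5 and 49.04 CPM in old members, and in other cells at 5.75, 44.6, 22.9 and 17.1 CPM in young 1, young 2, old 1 and old 2, and Mcpt8, a basophil protease, made up 73.4 of the 99.5 CPM of old sample 1. The dendritic cell list was at 9.57, 8.28, 22.8 and 94.8 CPM in members.

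The stress list, which holds early response genes such as Fos and Jun, was at 0.920 to 1.01 times the other cells in members, and the antigen presentation list at 0.763 to 0.987 times, lower in members in 4 of 4 samples. Between ages, 0 of 6 tested stress genes and 0 of 6 tested interferon-stimulated genes were called by edgeR, with 3 and 1 at an unadjusted p under 0.05. The list of 5 tested proliferation genes also had 0 calls and 0 at an unadjusted p under 0.05, with a median log2 fold change of 0.03. In the interaction test, the genes after Car2 were Cst3 (0.83, SE 0.14, adjusted p = 0.0688 in edgeR) and Cd24a (-0.94, SE 0.17, adjusted p = 0.102), neither of them called. Cd24a was at 775, 1074, 1039 and 1043 CPM in members and at 249, 225, 535 and 459.6 CPM in other cells.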
